A study of Mus musculus with 3 samples.

Results

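Ccl21a, Ccl19 and Il7 were followed across lymph node stromal cells of mice, as the 3 genes of the 51912 in the gene list that carry these symbols. The symbols stand on 5 rows, and the second Ccl21a row and the second Ccl19 row, both on a scaffold outside the chromosomes, held 0 UMIs (unique molecular identifiers, each marking 1 captured RNA) in all 3 libraries. On GRCm38, Ccl21a (ENSMUSG00000094686) lies on chromosome 4 from 42772860 to 42773993 and Ccl19 (ENSMUSG00000071005) on chromosome 4 from 42754525 to 42756577, both on the minus strand. Il7 (ENSMUSG00000040329) lies on the minus strand of chromosome 3 from 7569994 to 7613760.

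The cells came from C57BL/6 mice carrying CXCL13-TdTomato, a transgene that puts Cre and the red fluorescent protein tdTomato under Cxcl13. They were sorted as live, Podoplanin+, CD31- and CD45- cells that carried the label, from digested lymph nodes. All mice had received antigen immune complexes (ICs). By the titles of the samples, the 2 libraries called 2-IC came from mice given ICs 7 days and again 24 h before analysis. The single 1-IC library came from mice given ICs 24 h before. For each time point the study pooled lymph nodes of several mice, over separate experiments that it does not tie to libraries by name. With the library as a block, p-values below set a difference between groups of barcodes against the variation left after library and group are fitted. That variation is pooled over all groups in a fit and partly shared between genes. It is therefore not the spread of a single pair over the 3 libraries, which can be wider.

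CCL21 and CCL19 are the ligands of CCR7, the receptor that guides naive T cells and mature dendritic cells into the T zone of the lymph node. IL-7 is a survival factor for T cells, made by the same fibroblastic reticular cells that build the T zone. CXCL13 is the ligand of CXCR5 and draws B cells into follicles, and it is the gene that drove the label. Follicular dendritic cells (FDCs) hold antigen for B cells inside the follicle and are marked by the complement receptor Cr2.

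Both chemokine genes have near-identical neighbours, so places where the coding sequences differ are given. Whole transcripts of Ccl21a and Gm21541, of 870 bases each, differed at 6 bases, of which those outside the coding sequence are not shown. In the coding sequence of 402 bases, Ccl21a differed from Gm21541 at 2 bases, T84A and C194T, with Ccl21a given first and positions counted from 1 at the first base of the start codon. The same 2 bases separate Ccl21a from Ccl21b. They lie at 42773747 in exon 2 and at 42773543 in exon 3 of Ccl21a. The capital letter marks the differing base.
Ccl21a, T84A: agtgatggagggggTcaggactgctgcct
Gm21541, T84A: agtgatggagggggAcaggactgctgcct
Ccl21a, C194T: ggcaatcctgttctCaccccggaagcact
Gm21541, C194T: ggcaatcctgttctTaccccggaagcact

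Gm21541 was counted with 56, 42 and 3 UMIs in 2-IC replicates 1 and 2 and the 1-IC library, beside 63013, 36161 and 16331 UMIs of Ccl21a over all barcodes. Ccl21b, Ccl21c, Gm13304 and Gm10591 were listed at 0 UMIs. Reads that fit several copies equally well cannot be placed by sequence, so the Ccl21a row is uncertain to that extent.

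Ccl19 and the pseudogene Ccl19-ps1, on the plus strand of chromosome 4 from 41921405 to 41923020, differed at 4 of 327 bases of the coding sequence of Ccl19, among them the second base of its start codon. The 4 are T2C, C68A, C118T and A267C, and the windows of the middle 2 are shown with the differing base in capitals.
Ccl19, C68A: cttcccagccccaaCtctggggggtgcta
Ccl19-ps1, C68A: cttcccagccccaaAtctggggggtgcta
Ccl19, C118T: tgtctgtgacccagCgccccatccctggg
Ccl19-ps1, C118T: tgtctgtgacccagTgccccatccctggg

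In stromal barcodes Ccl19-ps1 took 13.9%, 18.5% and 12.1% of the UMIs of Ccl19 and Ccl19-ps1 together in 2-IC replicates 1 and 2 and the 1-IC library (exact binomial 95% intervals 13.4 to 14.5%, 17.8 to 19.3% and 11.2 to 12.98%). Levels of Ccl19 below count its own row alone. With the pseudogene added, Ccl19 passed the test in 8 gate pairs, as it did without.

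Of 5486 barcodes, 2243 were kept as stromal, namely 1526 of 3790, 391 of 1029 and 326 of 667 for 2-IC replicates 1 and 2 and the 1-IC library, with a median of 4700.5, 14732.0 and 5979.0 UMIs. The libraries 2-IC replicate 1 and 2-IC replicate 2 shared 76 barcodes, with a median of 782.5 UMIs in the first and 32618.5 in the second, and 63 of these matched themselves best among the 76 by expression. Results without the shared barcodes are given beside those they change. Stromal barcodes were gated on 1 or more UMIs of a marker in the order Cr2, Madcam1, Tnfsf11, then Fmod or Inmt alone. The study gave Cr2, Madcam1, Tnfsf11 and Fmod among the genes of its FDCs, marginal reticular cells, interfollicular reticular cells and reticular cells of the border between T zone and follicle, with Tnfsf11 also in marginal cells. Inmt, a gene known from reticular cells of the medulla, was not among those the study gave for its medullary clusters and was chosen here. The gates held 145, 35 and 50 barcodes (Cr2), 50, 16 and 17 (Madcam1), 376, 135 and 82 (Tnfsf11), 69, 21 and 10 (Fmod) and 461, 91 and 81 (Inmt) in the 3 libraries in the order above. By the order of gating, 67.0%, 80% and 56.1% of barcodes in the Tnfsf11 gate also held Inmt, so Inmt does not set the Tnfsf11 and Inmt gates apart. In the Cr2 gate 26.2%, 20% and 2% of barcodes also held Inmt, and 10.3%, 5.71% and 0% held Fmod. The FDC genes Fcer2a and Coch averaged 198.1 and 214.3 CPM (UMIs of the gene per 1000000 UMIs of the barcodes) in the Cr2 gate and at most 10.0 and 53.7 in any other gate. Fcgr2b and Sox9 averaged 217.7 and 301.1 in the Cr2 gate and at most 11.4 and 116.1 elsewhere. Clu and Mfge8 set it apart less, at 17478.0 and 12420.8 in the Cr2 gate, 15482.5 and 9388.6 in the Madcam1 gate and 6152.6 and 4106.5 in the Fmod gate.

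Ccl21a was highest in the Fmod gate and lowest in the Cr2 gate among the 5 gates in every library, where barcodes with both Fmod and Inmt stood in no gate. Its level in the Fmod gate was 17849.4, 9430.8 and 15739.1 CPM in 2-IC replicates 1 and 2 and the 1-IC library, a mean of 14339.8 ± 4380.3 (SD, n = 3). In the Cr2 gate it was 2375.3, 815.5 and 470.1, a mean of 1220.3 ± 1015.1 (SD, n = 3). The lowest library of the Fmod gate lay above the highest of the Cr2 gate. Between them stood the Madcam1 gate at 5181.4 ± 2277.0, the Tnfsf11 gate at 3900.4 ± 1438.4 and the Inmt gate at 3087.0 ± 1884.1 (SD, n = 3 each), whose ranges overlapped one another. The tenth of Madcam1 barcodes with the most Ccl21a held 74.6%, 73.9% and 93.8% of its UMIs there, and in the 1-IC library 4 of 17 Madcam1 barcodes held any. Barcodes with both Fmod and Inmt, 109, 38 and 9 in number, held Ccl21a at 7579.4, 10050.1 and 8902.7 CPM, above the Fmod gate in 2-IC replicate 2 and below it in the other libraries.

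In sums per library and gate, fitted across all genes with edgeR's quasi-likelihood test and the library as a block, Ccl21a passed an adjusted p of 0.05 in 7 of 10 gate pairs. The Fmod gate exceeded the Cr2 gate by 3.49 ± 0.47 on the log2 scale (SE, adjusted p = 3.15e-06), in a comparison that called 15.5% of the 7350 genes tested in either direction. Against the Tnfsf11 gate the Fmod gate was higher by 1.86 ± 0.44 (adjusted p = 0.0148, 2.63% of genes called for the Fmod and Tnfsf11 pair). Against the Inmt gate it was higher too, since the Inmt gate stood at -2.19 ± 0.44 relative to the Fmod gate (adjusted p = 0.00313, 3.27% of genes called). The call against the Cr2 gate held in 14 of 14 alternative settings. The call against the Tnfsf11 gate was lost under DESeq2, without the block, with a stricter contaminant filter and with exactly 1 gate marker. The call against the Inmt gate was lost under DESeq2 and without the block. Ccl21a was one of the genes by which the study described the Fmod cells in these libraries, so its rise there is not independent evidence for the label.

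The other gate pairs were also less firm than the Fmod and Cr2 pair. Ccl21a exceeded the Madcam1 gate in the Fmod gate by 1.43 ± 0.44 (adjusted p = 0.0493, 6.38% of genes called), a call that was lost without the shared barcodes, at 0.815 (adjusted p = 0.289) without 2-IC replicate 1, and at 1.47 (adjusted p = 0.0532) without the 1-IC library. The Madcam1, Tnfsf11 and Inmt gates did not pass in any pair among themselves. The Cr2 gate lay below the Madcam1 gate by 2.07 ± 0.46 (adjusted p = 0.00487, 5.14% of genes called), below the Tnfsf11 gate by 1.63 ± 0.45 (adjusted p = 0.00845, 20.8% for Tnfsf11 with Cr2) and below the Inmt gate by 1.30 ± 0.44 (adjusted p = 0.0291, 26.8% for Inmt with Cr2), all on the log2 scale. In 2-IC replicate 1 alone the Madcam1 and Tnfsf11 gates exceeded the Cr2 gate by only 0.108 and 0.139 in log2 ratio of levels, while in the 1-IC library they did so by 3.75 and 3.54. The Inmt gate exceeded it by 0.437 and 0.486 in 2-IC replicates 1 and 2 and by 3.38 in the 1-IC library. The SE values above, pooled over gates, do not show this spread between libraries. The Madcam1 call was lost without 2-IC replicate 2 (1.38, adjusted p = 0.102), and the Tnfsf11 and Inmt calls without the 1-IC library (1.04, adjusted p = 0.118, and 0.488, adjusted p = 0.488). Without the library block 1 of the 10 pairs passed, and under DESeq2 2 did.

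**Figure D1:**
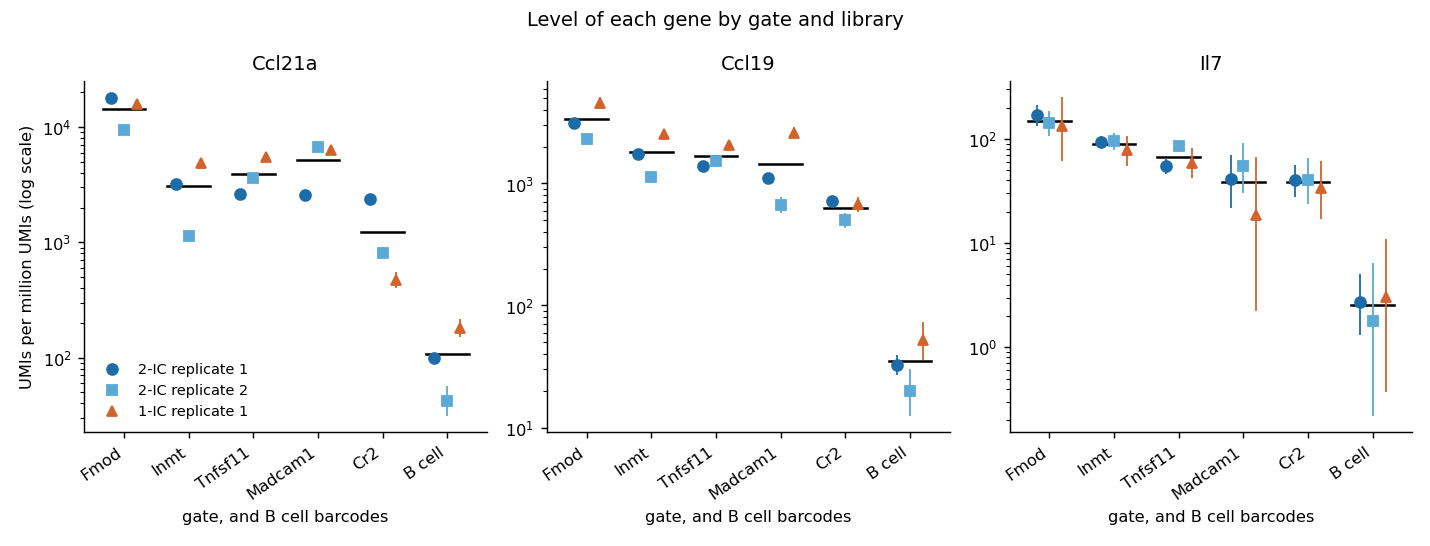
Level of Ccl21a, Ccl19 and Il7 in CPM (log scale) in each gate and in B cell barcodes, with a symbol per library, exact Poisson 95% intervals and the mean over 3 libraries as a bar. All 3 genes have their highest mean in the Fmod gate, and all 3 genes stand lower in B cell barcodes than in any gate of the same library.

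Ccl19 followed the same ends of the order with a narrower range. Its level in the Fmod gate was 3149.5, 2327.5 and 4573.3 CPM, a mean of 3350.1 ± 1136.2 (SD, n = 3), and in the Cr2 gate 725.1, 498.9 and 675.6, a mean of 633.2 ± 118.9. The Fmod and Cr2 gates did not overlap over libraries. The Inmt, Tnfsf11 and Madcam1 gates stood at 1798.2 ± 713.3, 1669.4 ± 356.2 and 1455.7 ± 1010.9 (SD, n = 3 each). The Fmod gate exceeded the Cr2 gate by 2.30 ± 0.20 on the log2 scale (adjusted p = 3.80e-09), and the Inmt gate did so by 1.46 ± 0.20 and the Tnfsf11 gate by 1.33 ± 0.20 (adjusted p = 1.73e-06 and 9.02e-06). Those 3 differences from the Cr2 gate passed under each of 15 alternative settings.

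Of the 10 pairs, Ccl19 passed in 8. The Fmod gate lay above the Tnfsf11 gate by 0.972 ± 0.193 (adjusted p = 0.00317), and without 2-IC replicate 1 that value was 0.80 (adjusted p = 0.192). The Inmt gate stood at -0.83 ± 0.19 relative to the Fmod gate on the log2 scale (adjusted p = 0.0116), with the same library removed at -0.80 (adjusted p = 0.172). Against the Madcam1 gate, the Fmod gate was higher by 1.42 ± 0.20 (adjusted p = 4.54e-05) and the Inmt gate by 0.588 ± 0.197 (adjusted p = 0.0497, 12.3% of genes called for Inmt with Madcam1), which 11 of 15 alternatives did not call, among them the setting without the shared barcodes, without 2-IC replicate 1 (0.419, adjusted p = 0.466) and without 2-IC replicate 2 (0.495, adjusted p = 0.168). The Madcam1 gate exceeded the Cr2 gate by 0.875 ± 0.204 (adjusted p = 0.00753), or by 0.471 (adjusted p = 0.214) without the 1-IC library. The Tnfsf11 gate differed from the Madcam1 gate by 0.451 (95% interval 0.045 to 0.856, adjusted p = 0.232, 4.99% of genes called), and without the 1-IC library this pair passed at 0.776 (adjusted p = 0.00960). The Inmt and Tnfsf11 gates differed by 0.137 (95% interval -0.253 to 0.526, adjusted p = 0.871, 2.94% of genes called).

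Il7 was sparse and again highest in the Fmod gate, at 169.3, 141.4 and 133.6 CPM (mean 148.1 ± 18.7, SD, n = 3). The 79, 55 and 9 UMIs behind these values gave exact Poisson 95% intervals of 134.0 to 210.9, 106.6 to 184.1 and 61.1 to 253.7, for counting error only. The Cr2 gate held 40.2, 40.8 and 34.3 CPM (mean 38.4 ± 3.6) and the Madcam1 gate 41.3, 55.1 and 18.5 (mean 38.3 ± 18.5). Before thinning Il7 was detected in 10 of 50, 4 of 16 and 2 of 17 Madcam1 barcodes, so comparisons with that gate rest on few UMIs. The Inmt gate at 89.6 ± 9.8 and the Tnfsf11 gate at 66.7 ± 16.7 (SD, n = 3) stood between.

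Il7 passed in 6 of 10 pairs. The Fmod gate exceeded the Cr2 gate by 1.93 ± 0.25 on the log2 scale (adjusted p = 1.68e-06) and the Madcam1 gate by 1.92 ± 0.29 (adjusted p = 0.000102), and the Inmt gate exceeded both by 1.25 ± 0.22 and 1.24 ± 0.28 (adjusted p = 8.62e-05 and 0.00292). The Inmt difference from the Madcam1 gate was 1.12 (adjusted p = 0.0820) without 2-IC replicate 1. Both calls against the Madcam1 gate were lost with barcodes thinned to 2000 UMIs and with exactly 1 gate marker. The Inmt call there was also lost with the stricter contaminant filter. The Fmod gate exceeded the Tnfsf11 gate by 1.23 ± 0.20 (adjusted p = 0.000312), or by 0.823 (adjusted p = 0.224) without 2-IC replicate 1. That call was also lost without the block, with the stricter contaminant filter and with barcodes thinned to 2000 UMIs. The Tnfsf11 gate exceeded the Cr2 gate by 0.703 ± 0.229 (adjusted p = 0.0271), which did not pass when any one library was left out (0.847, 0.514 and 0.707 without 2-IC replicates 1 and 2 and the 1-IC library, adjusted p from 0.0781 to 0.212). Fmod and Inmt were not separated at the threshold (adjusted p = 0.0503), though without the shared barcodes that pair passed and the count was 7.

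**Figure D2:**
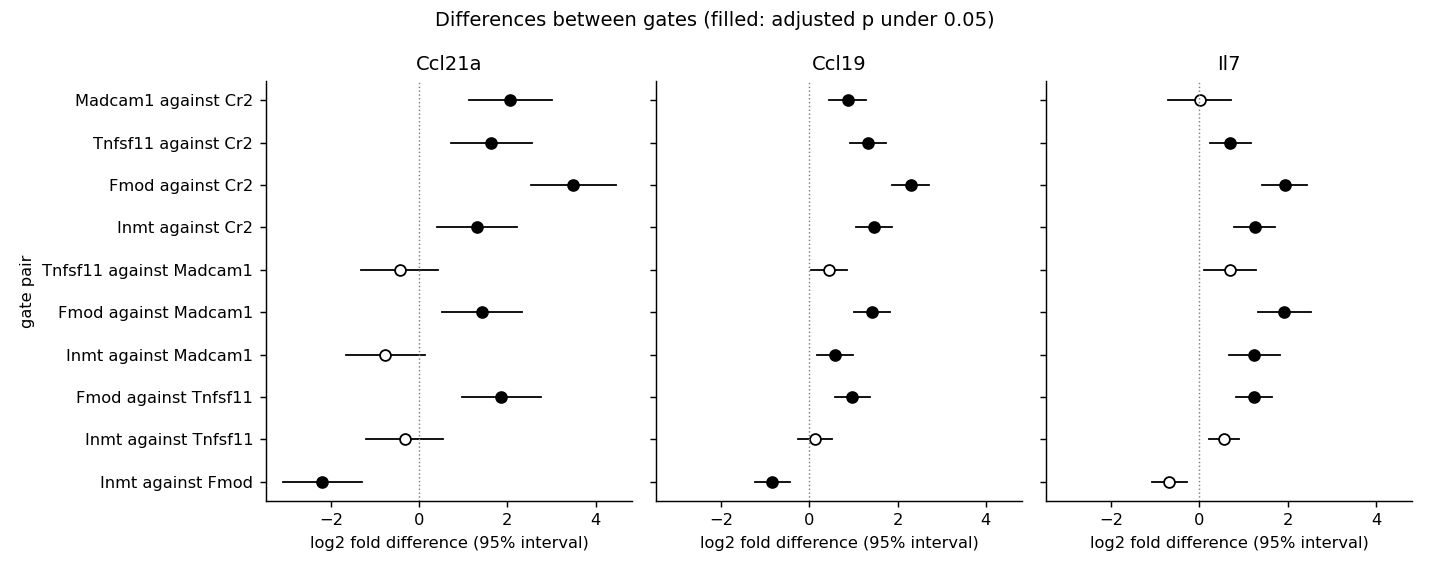
Log2 fold difference between gates for each gene with a 95% interval derived from the edgeR test, with filled symbols for an adjusted p under 0.05. Ccl21a has 7 filled symbols, Ccl19 8 and Il7 6, and the widest intervals belong to Ccl21a.

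The genes differed in how many cells carried them. With every barcode thinned to 2000 UMIs, which left 1307, 346 and 271 stromal barcodes, Ccl19 was detected in 78.0%, 70.5% and 76.8% of them, Ccl21a in 50.2%, 44.5% and 38.8%, and Il7 in 14.8%, 15.3% and 14.02%. Unthinned shares were 82.9%, 85.7% and 77.9% for Ccl19, 63.6%, 66.0% and 41.7% for Ccl21a, and 26.7%, 48.6% and 26.1% for Il7. Ccl21a was concentrated, as the tenth of stromal barcodes with the most of it held 71.1%, 72.4% and 70.8% of its UMIs, against 39.6%, 36.8% and 46.0% for Ccl19. In the Fmod gate Ccl21a was detected in 83.3%, 84.2% and 80% and Ccl19 in 95.5%, 79.0% and 100% of thinned barcodes.

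B cell barcodes, which should lack these genes, were taken as the background. At the same depth Ccl21a was found in 18.6%, 10.2% and 4.32% of B cell barcodes in 2-IC replicates 1 and 2 and the 1-IC library, Ccl19 in 4.74%, 2.78% and 3.09%, and Il7 in 0.791%, 0% and 0%, where 0 of 108 and 0 of 162 allow up to 3.36% and 2.25% (exact upper limits). In the Cr2 gate Ccl21a was found in 33.9%, 11.8% and 7.14%, and the exact 95% intervals of 3.30 to 27.5% and 1.498 to 19.5% in 2-IC replicate 2 and the 1-IC library held the B cell value of the same library. A stricter B cell set, with 0 UMIs of the 4 matrix genes and 109, 26 and 148 barcodes, gave thinned shares of 19.3%, 11.5% and 1.44% for Ccl21a. The share of Cr2 barcodes with Ccl21a could not be told apart from background in 2-IC replicate 2 by either set. In the 1-IC library its interval held the value of the first set and began just above that of the strict set, whose own interval reached 5.10%. The level of Ccl21a was 98.6, 42.3 and 180.5 CPM in B cell barcodes and 83.7, 45.5 and 9.31 in the strict set, below the Cr2 gate in each library. In the 1-IC library all B cell UMIs of Ccl21a lay in 10 of 171 barcodes, so that this level is not an even background. The tenth of Cr2 barcodes with the most Ccl21a held 88.8%, 93.2% and 99.3% of its UMIs there. Ccl19 in the Cr2 gate, at 44.6%, 23.5% and 35.7%, lay above the B cell share in each library. Median depth before thinning was 5166.0, 10091.0 and 4836.5 UMIs in the Cr2 gate and 4002.0, 6314.0 and 3185.0 in B cell barcodes.

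**Figure D3:**
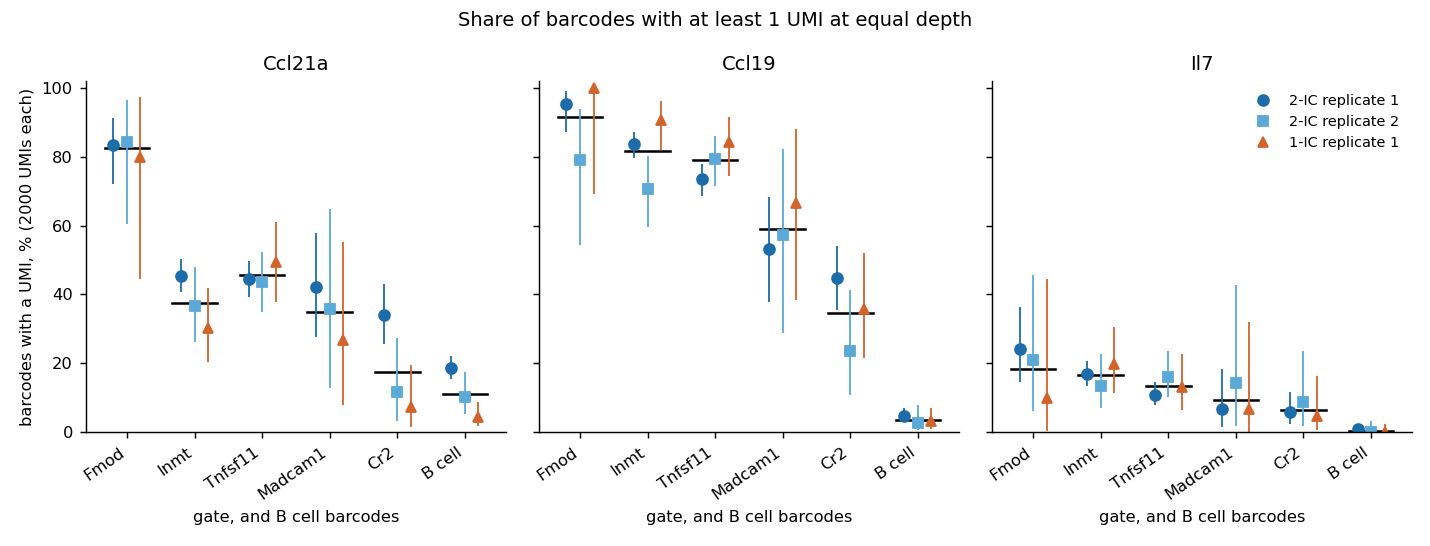
Share of barcodes with at least 1 UMI of each gene (percent) after thinning every barcode to 2000 UMIs, by gate and in B cell barcodes, with exact binomial 95% intervals per library and the mean as a bar. Ccl19 lies far above the B cell share in every gate, and Ccl21a in the Cr2 gate lies near it in 2 of 3 libraries.

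Joint detection was described without a test, since 3 libraries cannot go below an exact p of 0.25. Ccl21a and Ccl19 were both found in 42.6%, 35.8% and 36.2% of thinned stromal barcodes (mean 38.2%). Among barcodes with Ccl21a, 84.9%, 80.5% and 93.3% also held Ccl19, against 71.0%, 62.5% and 66.3% of barcodes without Ccl21a. Of the barcodes with Il7, 87.1%, 90.6% and 89.5% held Ccl19, and 63.9%, 50.9% and 47.4% held Ccl21a, which was detected less often in general. Il7 was found in 16.58%, 19.67% and 16.35% of barcodes with Ccl19 and in 8.68%, 4.90% and 6.35% of those without. It was found in 18.9%, 17.53% and 17.14% of barcodes with Ccl21a and in 10.75%, 13.54% and 12.05% of those without. All 3 genes together were seen in 110 of 1307, 25 of 346 and 18 of 271 barcodes. In 13.6%, 19.9% and 19.2% none of the 3 was seen. The pair Ccl21a and Ccl19 was seen in 78.8%, 63.2% and 80% of the Fmod gate and in 1.58%, 0.926% and 1.23% of B cell barcodes.

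Detection together with Cxcl13 was common, in cells that were sorted by a label under Cxcl13. Thinned B cell barcodes held Cxcl13 in 195 of 506, 28 of 108 and 30 of 162, in 2-IC replicates 1 and 2 and the 1-IC library. They held it together with Ccl21a in 8.89%, 0.926% and 1.235%. Ccl21a and Cxcl13 were both detected in 44.0%, 31.8% and 33.6% of thinned stromal barcodes, and Ccl19 and Cxcl13 in 68.4%, 54.0% and 69.4%. Of barcodes with Ccl21a, 87.7%, 71.4% and 86.7% held Cxcl13, and of those without it 90.3%, 82.8% and 92.2%. Across stromal barcodes within a library, Spearman's rho of thinned counts was -0.24, -0.26 and -0.29 between Ccl21a and Cxcl13 and 0.36, 0.35 and 0.39 between Ccl21a and Ccl19, as a description over sparse counts that share a library.

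Stromal barcodes were then grouped by Cxcl13, low under 10, middle from 10 to 100 and high over 100 UMIs per 10000. Ccl21a fell from low to high Cxcl13, with 7825.3, 5749.5 and 11538.0 CPM in the low class and 1141.3, 760.0 and 1805.0 in the high class. The low and high classes did not overlap. The middle class, at 4633.9, 4589.0 and 8550.0, stood between them in each library, and its range overlapped that of the low class. The high class stood at -2.86 ± 0.12 relative to the low class on the log2 scale (SE, edgeR adjusted p = 1.06e-12, 19.5% of 11024 genes called). Il7 was at 136.4, 133.3 and 104.6 in the low and 31.2, 38.0 and 40.8 in the high class, a log2 difference of -1.98 ± 0.16 (adjusted p = 6.24e-09). Ccl19 was at 2147.5, 1553.9 and 2597.5 in the low and 963.0, 946.1 and 1372.0 in the high class, a log2 difference of -1.01 ± 0.12 (adjusted p = 1.34e-06). The CPM of all 3 was lower in the high than in the low class in 3 of 3 libraries. Unthinned detection differed less. Ccl21a was found in 66.8%, 70.6% and 43.5% of barcodes in the low class and 57.2%, 51.9% and 31.6% in the high class. Ccl19 was found in 87.9%, 86.3% and 65.2% against 73.8%, 84.6% and 74.4%, so that its share was higher in the high class of the 1-IC library. In the middle class Il7 stood between, at 83.9, 78.3 and 86.9. Ccl19 there was at 1916.3, 1485.7 and 2965.8, close to the low class in 2-IC replicates 1 and 2 and above it in the 1-IC library.

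With every Cr2 barcode left out, the log2 differences between high and low Cxcl13 were -2.51 for Ccl21a, -1.76 for Il7 and -0.74 for Ccl19 (adjusted p = 1.53e-12, 1.06e-08 and 1.94e-05). Without the filter on contaminant genes, which adds barcodes that carry other cells' RNA, Ccl19 stood at 0.115 (adjusted p = 0.718), and without the library block it did not pass (adjusted p = 0.105).

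**Figure D4:**
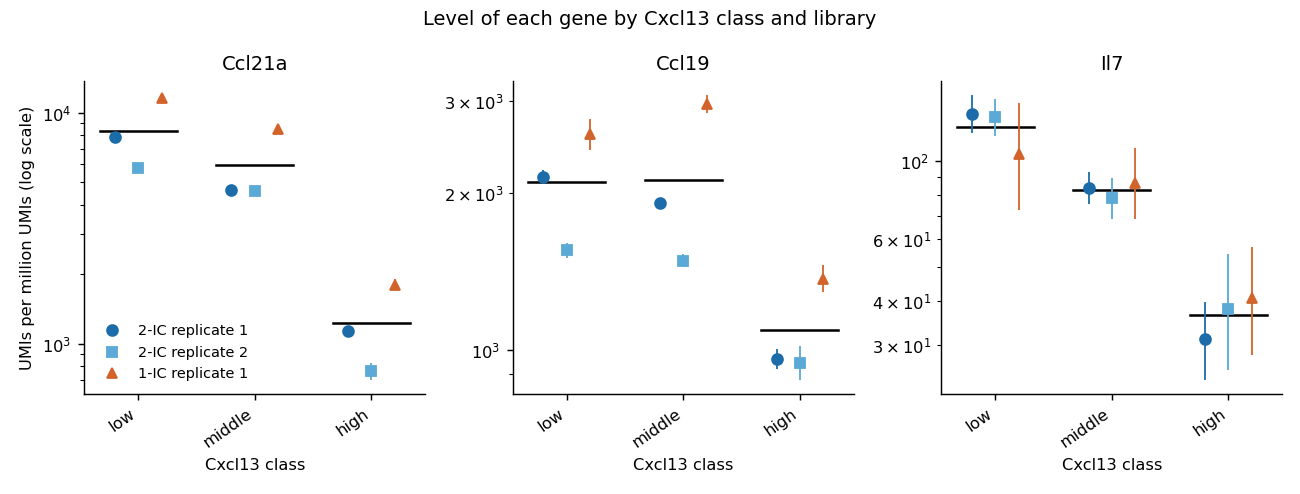
Level of each gene in CPM (log scale) in stromal barcodes of low, middle and high Cxcl13, with a symbol per library, exact Poisson 95% intervals and the mean as a bar. The high class lies below the low class for all 3 genes in every library, with the widest gap for Ccl21a.

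Barcodes high in both Ccl21a and Cxcl13 were few. Over 100 UMIs per 10000 of Ccl21a were found in 176 of 1526, 50 of 391 and 50 of 326 stromal barcodes. Of these, 9, 1 and 6 were also high in Cxcl13, which is 0.590%, 0.256% and 1.84% of the stromal barcodes. High Cxcl13 was found in 320, 52 and 117 stromal barcodes of 2-IC replicates 1 and 2 and the 1-IC library (20.97%, 13.3% and 35.89%). The class high in Cxcl13 was thus largest in the 1-IC library. Whether the overlap was smaller than the sizes of both classes would give was not tested. In the Fmod gate 46.4%, 47.6% and 50% of barcodes were high in Ccl21a, and in the Cr2 gate 7 of 145, 1 of 35 and 0 of 50. The 7 such Cr2 barcodes of 2-IC replicate 1 had a median of 12.6 Cxcl13 UMIs per 10000, against 334.9 in the other Cr2 barcodes of that library. The Fmod gate held 18.2%, 20% and 10% of the barcodes high in Ccl21a, beside 4.52%, 5.37% and 3.07% of all stromal barcodes. The Tnfsf11 gate held 15.9%, 28% and 30% of them, beside 24.6%, 34.5% and 25.2% of all stromal barcodes, and the Inmt gate 21.6%, 6% and 24%, beside 30.2%, 23.3% and 24.9%. Barcodes with both Fmod and Inmt held 12.5%, 24% and 6%, beside 7.14%, 9.72% and 2.76%, and those with none of the 5 markers 26.1%, 12% and 26%, beside 20.7%, 14.1% and 23.6%. Ccl19 was at 3421.3, 2632.7 and 4135.0 CPM in barcodes high in Ccl21a and at 1249.0, 988.7 and 1593.4 in those under 10 per 10000. Il7 was at 162.2, 121.1 and 117.9 against 57.8, 74.6 and 48.7 in the same classes.

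**Figure D5:**
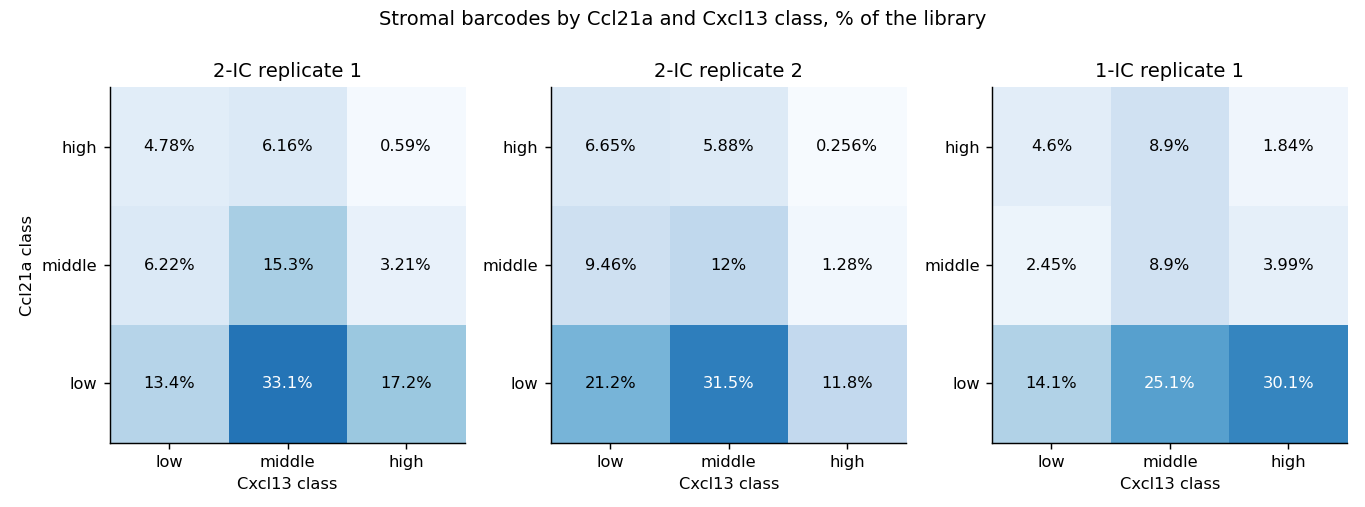
Share of stromal barcodes (percent of the library) in each class of Ccl21a (rows) and Cxcl13 (columns), low under 10, middle and high over 100 UMIs per 10000, for each library. The corner high in both genes holds 0.590%, 0.256% and 1.84%, the smallest share of each library.

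Endothelial markers stood near 0 where Ccl21a was high, and the mature dendritic cell list did not. Of these markers Cldn5, Egfl7 and Lyve1 were fixed at 0 UMIs by the contaminant filter. Of those the filter did not use, Cdh5, Prox1 and Mmrn1 were at 0 UMIs in the Fmod gate of all 3 libraries, and Flt4 had 1 UMI and Pecam1 3 UMIs in 2-IC replicate 1. Emcn was also detected in that gate of 2-IC replicate 1, where the blood endothelial list summed to 10.7 CPM. In 2-IC replicate 2 and the 1-IC library it summed to 0 in the Fmod gate. The summed blood endothelial level was 8.96, 2.16 and 2.74 CPM in barcodes over 100 UMIs of Ccl21a per 10000 and 10.6, 7.76 and 10.8 in those under 10.

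The mature dendritic cell list, most of it Cd74, summed to 772.6, 385.1 and 1039.2 CPM in barcodes high in Ccl21a and to 821.3, 303.6 and 1245.0 in those low in it, so that it was higher with Ccl21a in 2-IC replicate 2 alone. In the Fmod gate it was 548.5, 321.5 and 742.4, within or below the range of the other gates, which ran from 636.7 to 1128.5, from 262.1 to 474.9 and from 593.7 to 889.9. Of the 5 genes of the list (Ccr7, Fscn1, Ccl22, H2-Aa and Cd74), 5, 3 and 3 were detected in the Fmod gate of 2-IC replicates 1 and 2 and the 1-IC library. Ccr7 had 3 UMIs in that gate of 2-IC replicate 1 and 0 in the others. Fscn1 or Ccl22 was thus detected there in every library. The part of these cells in the level of Ccl21a was not tested. Barcodes with endothelial markers that the filter had left out, 29, 9 and 3 in number, held Ccl21a at 115.7, 254.2 and 0 CPM, where the 0 allows up to 182.4 (exact Poisson limit).

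Between time points, the libraries were set side by side, since the 1-IC condition had 1 library. Over all stromal barcodes Ccl21a was at 4537.2 and 4500.5 CPM in the 2-IC libraries and at 6249.0 in the 1-IC library. Ccl19 was at 1739.7 and 1438.2 against 2249.5, Il7 at 83.4 and 93.1 against 70.7, and Cxcl13 at 9470.0 and 5225.3 against 17554.8. In the Fmod gate the 1-IC value of Ccl21a, 15739.1, lay between those of the 2-IC libraries. Thinned stromal barcodes held Ccl21a in 656 of 1307 and 154 of 346 in the 2-IC libraries and in 105 of 271 in the 1-IC library, the lowest share. The mix of barcodes also differed, with 9.50% and 8.95% of stromal barcodes in the Cr2 gate in the 2-IC libraries and 15.3% in the 1-IC library. The part of this mix in the levels was not tested.

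Genes whose level followed each member most closely over the 15 sums of library and gate, each centred within its library, were named as a description. For Ccl21a these were Shisa3, Prelp, Smpdl3a, Tagln and Mme (Pearson's r from 0.88 to 0.90, among genes with a mean of at least 50 CPM). Tagln, an actin-binding protein of contractile cells, stood at 598.2 in the Fmod and 53.5 in the Cr2 gate, and Prelp, a proteoglycan of the matrix, at 144.4 and 14.3. For Ccl19 they were Krtcap2, Tspan4, Nid1, Ctsl and Ccl19-ps1 (r from 0.91 to 0.94), and the pseudogene shares sequence with Ccl19. For Il7 they were Rps20, Rps23, C4b, Rpl23 and Rplp1 (r from 0.96 to 0.97), of which 4 encode ribosomal proteins and C4b is a complement component. Over the same sums Cxcl13 had r of -0.66, -0.94 and -0.88 with Ccl21a, Ccl19 and Il7, and Ccl21a had r of 0.82 with Ccl19 and 0.58 with Il7.

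The genes around this pathway were compared between the Fmod and Tnfsf11 gates, where 2.63% of all genes tested were called. Among the receptors and scavengers, 2 of 8 were abundant enough to test, Crlf2, a receptor chain for TSLP, and Il2rg, the common chain that the IL-7 receptor uses, and neither passed, with log2 differences of 0.19 and 0.67 (adjusted p = 0.854 and 0.822). Ccr7, the receptor of both chemokines, averaged 2.14 CPM in the Fmod gate, and the scavenger Ackr4 was at 0. In the family of ligands 2 of 6 were tested, and of these Cxcl13 passed, lower in the Fmod gate at -1.91 ± 0.17 (adjusted p = 4.18e-08), and Cxcl12, the ligand of CXCR4, did not, at 0.11 (adjusted p = 0.919). None of the 12 lymphotoxin and NF-kB genes passed, and the most abundant, the TNF receptor Tnfrsf1a and the NF-kB subunit gene Nfkb1, stood at -0.17 and -0.41 (adjusted p = 0.825 and 0.394). Among 15 tested of 17 other reticular cell genes, Tnfsf13b, which encodes the B cell survival factor BAFF, was higher in the Fmod gate by 1.01 ± 0.19 (adjusted p = 0.00195), and Enpp2, which encodes autotaxin, was lower at -1.42 ± 0.16 (adjusted p = 2.78e-06). Their median difference was 0.21, beside -0.03 over all genes tested. These genes were not flat over all gates. Between the Fmod and Cr2 gates, where the same test called 15.5% of genes, 2 of the 12 lymphotoxin and NF-kB genes passed. Relb and Nfkb2 were lower in the Fmod gate, at -1.17 and -0.62 (adjusted p = 0.00025 and 0.0385), as was Il2rg at -3.47 (adjusted p = 1.34e-05). Of the 15 other reticular cell genes, 5 were higher and 3 lower in the Fmod gate there.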

How the data were processed

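Lymph node stromal cells gave 3 droplet libraries (10x Genomics 3' chemistry), 2 of the 2-IC group and 1 of the 1-IC group, grouped by the titles of the samples. The short descriptions of the 2-IC libraries conflict with each other, naming 24 h and 7 days, and could stand for different samples. The authors aligned reads to GRCm38 and deposited raw UMI counts per gene and barcode, made with Cell Ranger (5.0.0 in the file headers, version 3 in the methods of the study). The counts are not normalized. Barcodes with at least 200 genes, at most 10% mitochondrial UMIs and 0 UMIs of 13 contaminant genes, as in the study, were kept as stromal. B cell barcodes had at least 5 UMIs of Cd79a, Cd79b and Ms4a1 together, more than of 4 matrix genes. No doublet caller was run, and leaving out the 5% of barcodes with the most UMIs was tried instead. The members, gates and lists were chosen with earlier results of these data known.

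Counts were summed per library and gate, since barcodes of a library are not replicates, and every sum held at least 10 barcodes. They were fitted in edgeR 4.0.16 (R 4.3.3; TMM, filterByExpr, quasi-likelihood test, library as a block) with Benjamini-Hochberg adjustment over all genes in each of 10 gate pairs, and likewise for Cxcl13 classes. The test was also run on simulated counts with some genes changed in the Fmod gate. These were drawn without gene differences between libraries, so they cannot check the library block. Named genes were the members, Cxcl13, the gate markers, the near-identical copies, the 5 genes most like each member, and in each pathway group those that passed between the Fmod and Tnfsf11 gates (up to 4), or otherwise the 2 most abundant. Flanking genes such as Ccr7, Ackr4 and cell type markers were given beside them. Alternatives were size factors of DESeq2, DESeq2 1.42.0, no low-count filter, no block, looser and stricter contaminant filters, thinning to 2000 UMIs, other gate and class limits, and leaving out each library. Leaving out shared barcodes and adding Ccl19-ps1 to Ccl19 were chosen after seeing the data. Levels are CPM, with exact Poisson intervals, and shares have exact binomial (Clopper-Pearson) intervals, both for counting error only. Coding sequences are from GENCODE vM21.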

Additional observations from a re-analysis of the deposited data

Results flagged for a closer look

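For 3 gate pairs the 2-IC libraries both moved one way and the 1-IC library the other, in log2 ratio of levels, and the difference between time points was not tested. Ccl19 in the Tnfsf11 against the Madcam1 gate stood at 0.336 and 1.21 in 2-IC replicates 1 and 2 and at -0.324 in the 1-IC library. Ccl19 in the Inmt against the Madcam1 gate stood at 0.646 and 0.751 against -0.030. Il7 in the Madcam1 against the Cr2 gate stood at 0.036 and 0.434 against -0.886. The 1-IC Madcam1 gate held 17 barcodes, of which 2 had any Il7, so its direction there rests on very few UMIs. For Ccl19, the tenth of these barcodes with the most of it held 80.4% of its UMIs in that gate. Median Ccl19 per 10000 UMIs in the 1-IC library was 4.76 in the Madcam1 gate and 10.6 in the Tnfsf11 gate. In 2-IC replicates 1 and 2 the medians were 3.23 against 8.82 and 3.47 against 7.81, the same direction.

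Counts outside the rows of the members were found for 2 copies, with no control samples to set them against, and above the 3 counts that a count of 0 allows except for Gm21541 in the 1-IC library. Ccl19-ps1 took 13.9%, 18.5% and 12.1% of its UMIs and those of Ccl19 together in stromal barcodes of 2-IC replicates 1 and 2 and the 1-IC library. Gm21541 held 56, 42 and 3 UMIs over all barcodes.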

How the results depend on the processing

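Of 10 gate pairs Ccl21a passed in 7, and in 2 under DESeq2, 1 without the replicate block, 4 without the contaminant filter, 4 with the stricter one and 4 to 7 with each library left out. Ccl19 passed in 8, and in 3 without the block, 4 without the contaminant filter, 5 with the stricter one, 3 with exactly 1 gate marker and 5 to 8 with each library left out. Il7 passed in 6, and in 3 with the stricter filter, 2 thinned to 2000 UMIs and 3 to 6 with each library left out. The stricter filter and the gate limits leave fewer barcodes. The cause of the other changes was not tested. The difference between Cxcl13 classes passed in 14 of 14 settings for Ccl21a and for Il7 and in 13 of 15 for Ccl19, which was at -1.02 without the block (adjusted p = 0.105) and turned to 0.115 (adjusted p = 0.718) without the contaminant filter. No paired analysis was possible across the 2-IC and 1-IC groups because the 1-IC condition has 1 library.

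Pairs that reversed had not passed the test, except Ccl19 Inmt against Madcam1. Ccl21a in the Tnfsf11 against the Madcam1 gate turned to 0.284 without the contaminant filter, 0.453 with the stricter one and 0.656 with 2 UMIs of the gate marker, and in the Inmt against the Madcam1 gate to 0.355 with 2 UMIs and 0.120 without 2-IC replicate 2 (from -1.21 to 0.120 with each library left out), and in the Inmt against the Tnfsf11 gate to 0.122 without that library (from -0.594). Ccl19 in the Tnfsf11 against the Madcam1 gate turned to -0.069 with the stricter filter and -0.181 with exactly 1 gate marker, in the Inmt against the Madcam1 gate to -0.156 with exactly 1 marker, and in the Inmt against the Tnfsf11 gate to -0.00036 without 2-IC replicate 1 (up to 0.406 without the others in turn). Il7 in the Madcam1 against the Cr2 gate turned to -0.052 without the low-count filter, -0.775 without the contaminant filter, -0.370 with the stricter one, -0.074 thinned, -0.054 without the 5% of deepest barcodes, -0.565 with 2 UMIs and -0.256 without 2-IC replicate 2 (up to 0.169 without the others in turn), and in the Tnfsf11 against the Madcam1 gate to -0.779 with exactly 1 marker.

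Joint shares follow depth and the barcodes kept. Thinned to 1000 UMIs, unthinned, at 2 UMIs and without the contaminant filter, the mean share was 27.2%, 50.8%, 27.9% and 26.3% for Ccl21a with Ccl19 (38.2% as reported), 5.76%, 32.7%, 2.03% and 8.28% for Ccl19 with Il7 (13.1%), 28.2%, 53.6%, 25.3% and 25.7% for Ccl21a with Cxcl13 (36.5%), 44.5%, 77.9%, 42.2% and 44.6% for Ccl19 with Cxcl13 (63.9%), and 5.09%, 32.0%, 1.74% and 7.54% for Il7 with Cxcl13 (11.6%).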
